A study of Oryza sativa with 4 samples.

Results

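The genes described here are those of the rice cell cycle, of DNA replication and of the kinesin motors. A gene was a member if its symbol, or a symbol among its synonyms in the RefSeq gene table, began with CYCA, CYCB, CYCD, CYCT, CYCU, CDK, CKS, MCM, ORC, PCNA, RFC, RPA or E2F, or with KIN followed by a digit or hyphen. Synonyms were searched because the symbol column of that table holds locus numbers for most rice genes, and by that column alone only 5 genes would have been members. The rule found 100 genes, and 89 of them had a probe set on the array, out of 17905 genes with one. No gene matched CYCU or E2F. The 89 genes comprised 18 cyclins, 12 cyclin-dependent kinases and their partners, 25 replication genes, 33 kinesins and KIN17, a nucleic acid-binding protein that shares only its first letters with the kinesins and was counted in no group.

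RNA came from coleoptiles of the rice cultivar Nipponbare (Oryza sativa) and was hybridised to Affymetrix Rice Genome GeneChip arrays, which carry a set of short probes per transcript and use 1 label. All seeds germinated for 4 days at 28 °C in darkness, 2 arrays after germination in air (aerobic, the control) and 2 after germination in an oxygen-free chamber under nitrogen with hydrogen (anoxic). Aerobic coleoptiles had their primary leaf cut out, while per the labels anoxic seedlings form none, so that step went with the group. The labels do not say whether replicates were grown separately, and the p-values therefore reflect only how far these arrays differ, a spread that may be technical.

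The cell cycle is driven by cyclin-dependent kinases, which act only when bound to a cyclin. D-type cyclins link growth signals to entry into DNA synthesis, A-type cyclins act from DNA synthesis to mitosis, and B-type cyclins act in mitosis. Replication origins are marked by the origin recognition complex (ORC), unwound by the MCM helicase, coated as single strands by replication protein A (RPA) and copied by polymerases held on DNA by the PCNA clamp, which the RFC complex loads. Kinesins move along microtubules, and in plants several of them build the spindle and the phragmoplast, the structure that lays down the new wall. The coleoptile is the sheath around the first leaf of a grass seedling and elongates mostly by cell expansion.

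Values are given as log2(intensity + 1), called the level, with 1 value per array. Pearson's r across the tested probe sets, a description only since probe sets are not independent, was 0.973 between the aerobic and 0.968 between the anoxic replicates, and 0.687 to 0.698 across groups. Among 64 reporter probe sets for transgene sequences that these plants should lack, the highest group mean was 4.05, and a level at or below it is called background. Probe sets with a mean level of at least 4 were tested with limma. A gene is said to have risen or fallen in anoxia at an adjusted p under 0.05 with a log2 change of at least 1.

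Anoxia changed a minority of the measurable members, in both directions. Of 51 members tested, 10 rose (19.6%) and 6 fell (11.8%), while 35 were not called. Over all 12290 genes tested, 16% rose and 18% fell, 34% in all, so neither share stood far from the array as a whole. The 6 falls were also all the members with a log2 change at or below -1, against 19.8% of all genes. Without the fold threshold 14 members were higher and 9 lower, where 42.7% of all genes passed in either direction. Both anoxic arrays lay above both aerobic arrays for 23 of the 51 members (40.8% of all genes) and below them for 14 (37.2%). The median log2 change was 0.14 over the tested members and 0.03 over all tested genes. The kinesins KIN14M and KIN7K had the deepest falls, the kinase gene CDKE-1, the cyclin CYCD4-1 and the clamp loader subunit RFC4 the largest rises. The rise of CDKE-1 depended on the probe set. Leaving out 1 array leaves its group with 1, which is then assumed to vary like the other group, and calls fell over the whole array from 32.1% of tested probe sets to between 11.1% and 22.6%. A call lost in this way therefore says little about the gene itself. Among the members the numbers of rises and falls were 1 and 1 without aerobic replicate 1, 2 and 2 without aerobic replicate 2, 6 and 3 without anoxic replicate 1, and 3 and 4 without anoxic replicate 2. All 16 called members kept the sign of their change in each alternative that gave them a value, and KIN7K alone kept its call without any 1 array. In these bulk samples fewer cells that express a gene and less RNA per cell cannot be told apart.

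**Figure D1:**
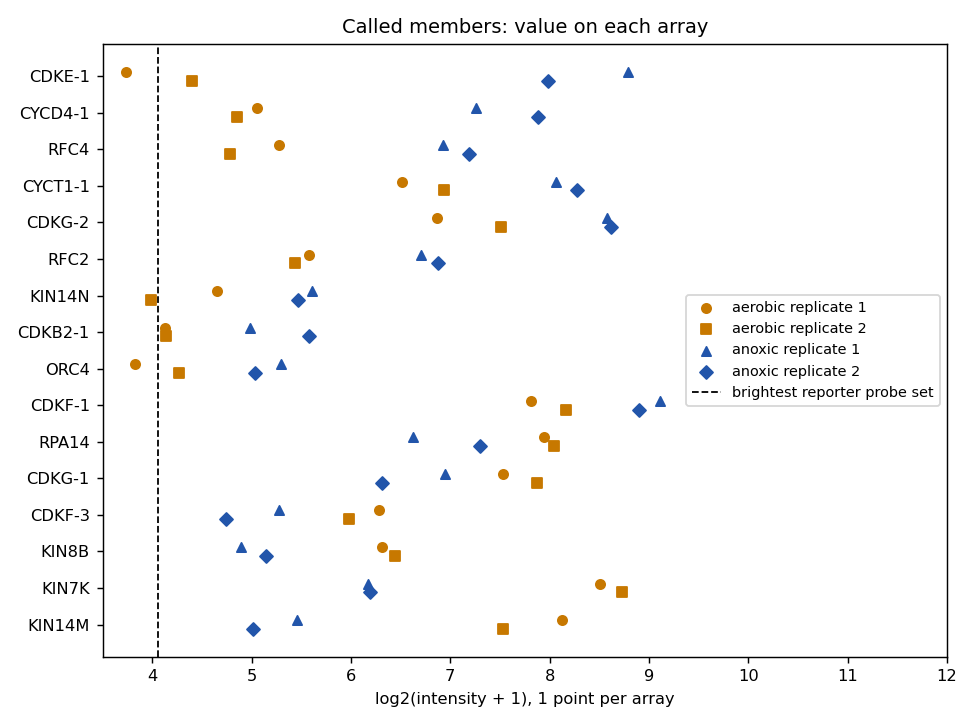
Level, log2(intensity + 1), of the 16 called members on each array, ordered by log2 change, with 1 point per array (orange aerobic, blue anoxic) and a dashed line at the brightest reporter probe set, 4.05. Aerobic and anoxic arrays do not overlap for any of these genes, and KIN14N, ORC4 and CDKE-1 have an aerobic array under the line.

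Among the cyclins, a D-type cyclin and a transcription cyclin rose. CYCD4-1 (LOC4347313), a D-type cyclin, read 5.05 and 4.85 in air and 7.25 and 7.88 in anoxia. Both anoxic arrays thus lay above both aerobic arrays, a rise of 2.61 ± 0.27 log2 units (SE, n = 2 against 2; 6.12-fold; limma, adjusted p = 0.00490). Its call was lost without aerobic replicate 1 or aerobic replicate 2 (adjusted p up to 0.0646).

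CYCT1-1 (LOC4352229) belongs to the T-type cyclins, which partner kinases of transcription elongation and are not phase-specific. It read 6.51 and 6.94 in air and 8.06 and 8.27 in anoxia, a rise of 1.44 ± 0.23 (2.71-fold, adjusted p = 0.0123), and lost its call without any 1 array (adjusted p from 0.0560 to 0.0757). Its relative CYCT1_2 differed by 0.93 ± 0.23 (adjusted p = 0.0350), under the fold threshold.

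The other 4 tested D-type cyclins were not called. CYCD4-2 differed by -0.24 ± 0.29, CYCD5-3 by -0.24 ± 0.23 and CYCD5-2 by -0.46 ± 0.24, and the arrays of CYCD4-2 and CYCD5-3 overlapped between groups. CYCD5-2 depended on the probe set: with the mean of its tested probe sets the change was -1.03 (adjusted p = 0.0198) and the gene fell, which made 3 calls among cyclins. CYCD2-2 read 4.15 and 3.62 in air, at background on average, and 4.16 and 5.27 in anoxia. It passed the filter only through its anoxic arrays, was at least 1.58-fold higher there and was not called (adjusted p = 0.209). CYCA1-4, the 1 A-type cyclin tested, differed by 0.25 ± 0.31. In all, 2 of 8 tested cyclins rose (25%, against 16% of all tested genes) and 0 fell (against 18%). At an unadjusted p under 0.05 by limma 3 were higher and 0 lower. The median of 0.54 lies between CYCA1-4 (0.25) and CYCD2-2 (0.83), so it rests in part on a gene tested only through its anoxic arrays.

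**Figure D2:**
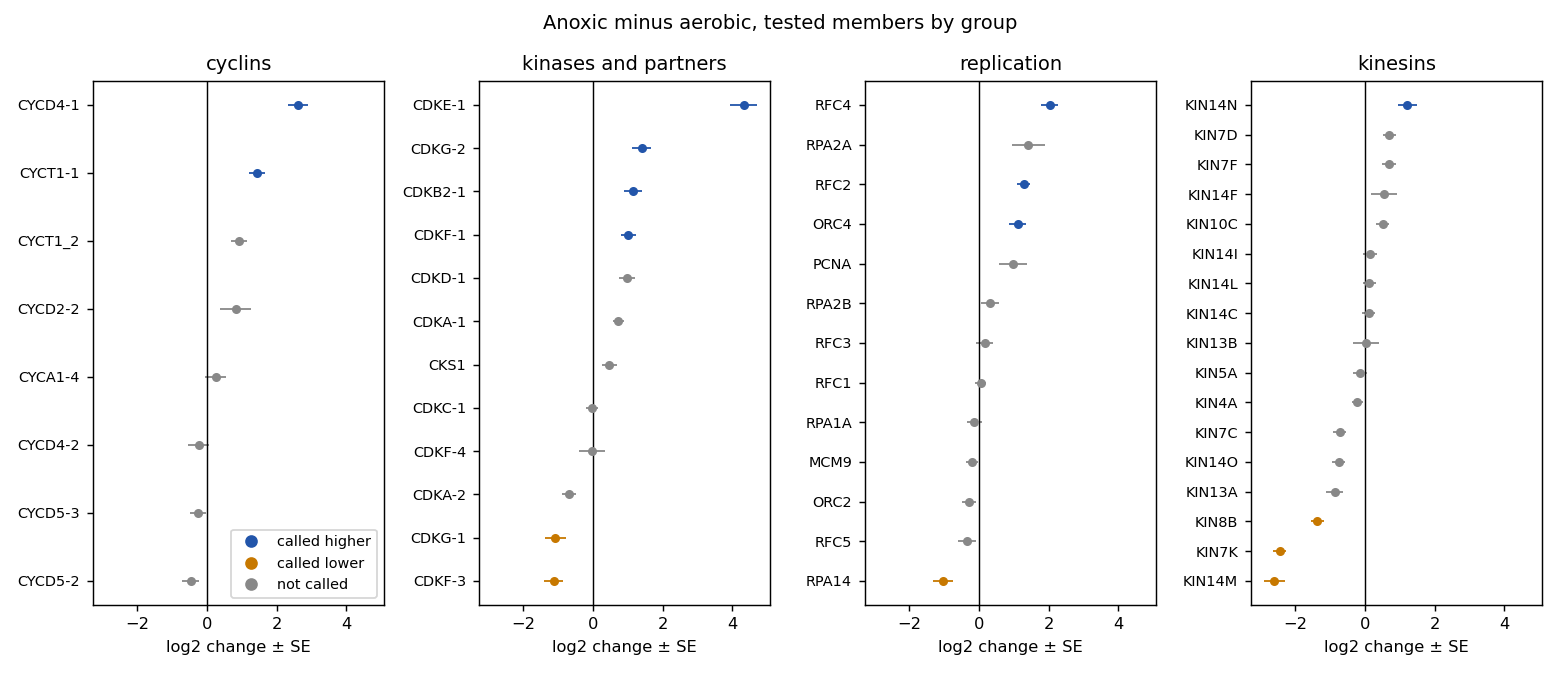
Log2 change, anoxic minus aerobic, with its SE for the tested cyclins (8 genes), kinases and partners (12), replication genes (13) and kinesins (17), coloured by call. Called rises and falls number 2 and 0, 4 and 2, 3 and 1, and 1 and 3 in the order of the panels. Over all tested genes 16% rose and 18% fell, and the counts are too small to give a direction per group.

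The kinases were all measurable, and each of the 12 with a probe set was tested. Of these 4 rose (33.3%, against 16% of all tested genes) and 2 fell (16.7%, against 18%), and the median was 0.60. CDKB2-1 (LOC4346016), of a plant-specific class that acts at the entry into mitosis, read 4.13 and 4.14 in air, just over background, and 4.98 and 5.58 in anoxia. It rose by 1.14 ± 0.26 (2.21-fold, adjusted p = 0.0292) and kept its call without anoxic replicate 1 but not without any other array (adjusted p up to 0.156). CDKF-1 (LOC4340934), whose Arabidopsis counterpart activates other cyclin-dependent kinases, read 7.82 and 8.16 in air and 9.11 and 8.90 in anoxia. This rise of 1.01 ± 0.21 (2.02-fold, adjusted p = 0.0243) was close to the fold threshold, and its call was lost without any 1 array (adjusted p from 0.0753 to 0.115).

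The largest change of any member was that of a kinase of transcription, and it depended on the probe set. CDKE-1 (LOC4349519), the kinase of the Mediator complex that carries signals to RNA polymerase, read 3.74 and 4.40 in air, on average barely above background, and 8.79 and 7.99 in anoxia with its brightest probe set, a rise of 4.32 ± 0.39 (20.0-fold, adjusted p = 0.00346; call lost without aerobic replicate 1, adjusted p = 0.0524). The other tested probe set of the gene read 6.96 and 7.10 in air and 7.66 and 7.59 in anoxia, a change of 0.59 that was not called. In air this other probe set was the brighter, so the first was taken as the brightest only through its anoxic arrays. The choice of probe set thus drew on the values that were then compared. The second probe set is the brighter by mean log2 level, and with it 9 members rose in place of 10.

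The G-type kinases, tied to splicing in Arabidopsis, moved in opposite directions. CDKG-2 (LOC4336224) read 6.87 and 7.51 in air and 8.58 and 8.61 in anoxia, a rise of 1.41 ± 0.27 (2.65-fold, adjusted p = 0.0197). CDKG-1 (LOC4329899) read 7.53 and 7.87 in air and 6.94 and 6.31 in anoxia, a change of -1.07 ± 0.29 (2.10-fold lower, adjusted p = 0.0471). The call of CDKG-2 was lost without aerobic replicate 1 or either anoxic array (adjusted p up to 0.0988), that of CDKG-1 without any 1 array (0.0551 to 0.225).

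CDKF-3 (LOC4334774) also fell, from 6.28 and 5.98 in air to 5.28 and 4.74 in anoxia (-1.12 ± 0.26, 2.18-fold lower, adjusted p = 0.0325), and lost its call without any 1 array (0.0512 to 0.173). CDKA-1 (LOC4331415), the central kinase that acts at both main transitions of the plant cycle, was not called. It read 8.73 and 8.69 in air and 9.46 and 9.42 in anoxia, so the groups did not overlap, but the difference of 0.73 ± 0.16 was under the fold threshold (adjusted p = 0.0280). CDKD-1 (LOC4338689), a kinase that activates other kinases of the family, was near the same threshold at 0.98 ± 0.23 (adjusted p = 0.0344) and passed it under quantile normalization (1.00, adjusted p = 0.0288) and without anoxic replicate 1 (1.21, 0.0477). CDKA-2 differed by -0.68 ± 0.21 (0.0643), CKS1, a docking subunit of the kinases, by 0.48 ± 0.23 (0.164), CDKC-1 by -0.015 ± 0.17 and CDKF-4 by -0.022 ± 0.38.

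In the replication group, subunits of the clamp loader rose. RFC4 (LOC4336704) read 5.27 and 4.78 in air and 6.93 and 7.19 in anoxia, a rise of 2.03 ± 0.25 (4.09-fold, adjusted p = 0.00678). RFC2 (LOC4351654) read 5.57 and 5.44 in air and 6.70 and 6.88 in anoxia, a rise of 1.28 ± 0.18 (2.44-fold, adjusted p = 0.00883). The complex did not rise as a whole: RFC1, its large subunit, differed by 0.05 ± 0.16, RFC3 by 0.16 ± 0.23 and RFC5 by -0.34 ± 0.27, and all 3 overlapped between groups. The call of RFC4 was lost without aerobic replicate 2 or anoxic replicate 2 (adjusted p up to 0.0556), that of RFC2 without aerobic replicate 1 or aerobic replicate 2 (up to 0.0711).

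ORC4 (LOC4324139), a subunit of the origin recognition complex, read 3.83 and 4.27 in air, at background, and 5.30 and 5.03 in anoxia. It was at least 2.16-fold higher (adjusted p = 0.0255), a call lost without any 1 array (adjusted p from 0.0735 to 0.117). ORC2, the other tested subunit, differed by -0.27 ± 0.20. The small subunit of replication protein A, RPA14 (LOC4327706), fell: it read 7.95 and 8.04 in air and 6.63 and 7.30 in anoxia (-1.03 ± 0.28, 2.05-fold lower, adjusted p = 0.0474). Its call held without anoxic replicate 2 but not without any other array (adjusted p up to 0.215).

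PCNA (LOC4331062), the clamp itself, was not called. It read 5.97 and 6.85 in air and 7.07 and 7.72 in anoxia, 0.99 ± 0.40 higher (adjusted p = 0.121). Both anoxic arrays lay above both aerobic arrays, but each pair of replicates spanned more than 0.5 log2 units. RPA2A (LOC4331236), a middle subunit of replication protein A and the tested member closest to the filter (mean level 4.17), read 3.17 and 3.76 in air and 4.29 and 5.47 in anoxia. Its aerobic arrays were at background and it passed the filter only through the anoxic ones. It was at least 1.77-fold higher and not called (adjusted p = 0.0781), though called under quantile normalization (0.0495) and with the replicate number as a block (0.0326). RPA2B (0.33 ± 0.26), RPA1A (-0.13 ± 0.21) and MCM9 (-0.20 ± 0.16) were not called. In sum 3 of 13 tested replication genes rose (23.1%, against 16% of all tested genes) and 1 fell (7.69%, against 18%), with a median of 0.16.

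Among 17 tested kinesins 3 fell (17.6%) and 1 rose (5.88%, against 16% of all tested genes), with a median of 0.03. The share that fell was close to the 18% of all tested genes. KIN14M (LOC4341280), of the class of kinesins that mostly walk to the minus end of microtubules, read 8.12 and 7.54 in air and 5.46 and 5.02 in anoxia. That is a change of -2.59 ± 0.30 (6.02-fold lower, adjusted p = 0.00583; call lost without aerobic replicate 1, 0.0572). KIN7K (LOC4349100) read 8.51 and 8.73 in air and 6.17 and 6.19 in anoxia, a change of -2.44 ± 0.18 (5.43-fold lower, adjusted p = 0.00232), with the anoxic replicates nearly equal. KIN8B (LOC4334272) read 6.31 and 6.45 in air and 4.90 and 5.15 in anoxia (-1.36 ± 0.19, 2.56-fold lower, adjusted p = 0.00891), and its call was lost without aerobic replicate 1 or aerobic replicate 2 (up to 0.0745).

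KIN14N (LOC4342193), of the same class as KIN14M, was the kinesin that rose. It read 4.65 and 3.99 in air and 5.61 and 5.47 in anoxia (1.22 ± 0.28, 2.33-fold, adjusted p = 0.0309) and lost its call without any 1 array (0.0555 to 0.135). The 7 tested genes of that class ranged from -2.59 to 1.22, with KIN14C, KIN14I and KIN14L between 0.11 and 0.14 and KIN14O at -0.75 ± 0.18 (adjusted p = 0.0357). Class 7 spread likewise: KIN7D and KIN7F stood 0.70 higher and KIN7C differed by -0.72, each under the fold threshold.

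Kinesins known in rice for organ shape and wall structure were not called. KIN13A (LOC4337845), the grain-size gene SRS3, read 10.06 and 9.79 in air and 9.27 and 8.85 in anoxia (-0.87 ± 0.23, adjusted p = 0.0457, under the fold threshold), and its other probe set gave -0.77. KIN4A (LOC4346402), needed for ordered cellulose fibrils and stem strength, differed by -0.21 ± 0.17 (adjusted p = 0.365). KIN13B overlapped between groups, with 7.77 and 7.17 in air and 7.13 and 7.88 in anoxia.

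Many members central to DNA synthesis and cell division were too dim to test. Of the 89 members, 38 lay below the filter, among them all 4 B-type cyclins with a probe set, 6 of 7 MCM genes and 16 of 33 kinesins. Levels at background in both groups were found for 29 members (32.6%), against 28.7% of all genes with a probe set. The MCM genes MCM2, MCM3, MCM4, MCM5, MCM7 and MCM8 had group means from 2.70 to 3.88, all at background. So did KIN7A, the rice NACK kinesin of cytokinesis (2.58 and 2.58 in air, 2.59 and 2.59 in anoxia), KIN12E and KIN14Q. CYCD3-1, at a mean of 3.96, was the member just under the filter.

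**Figure D3:**
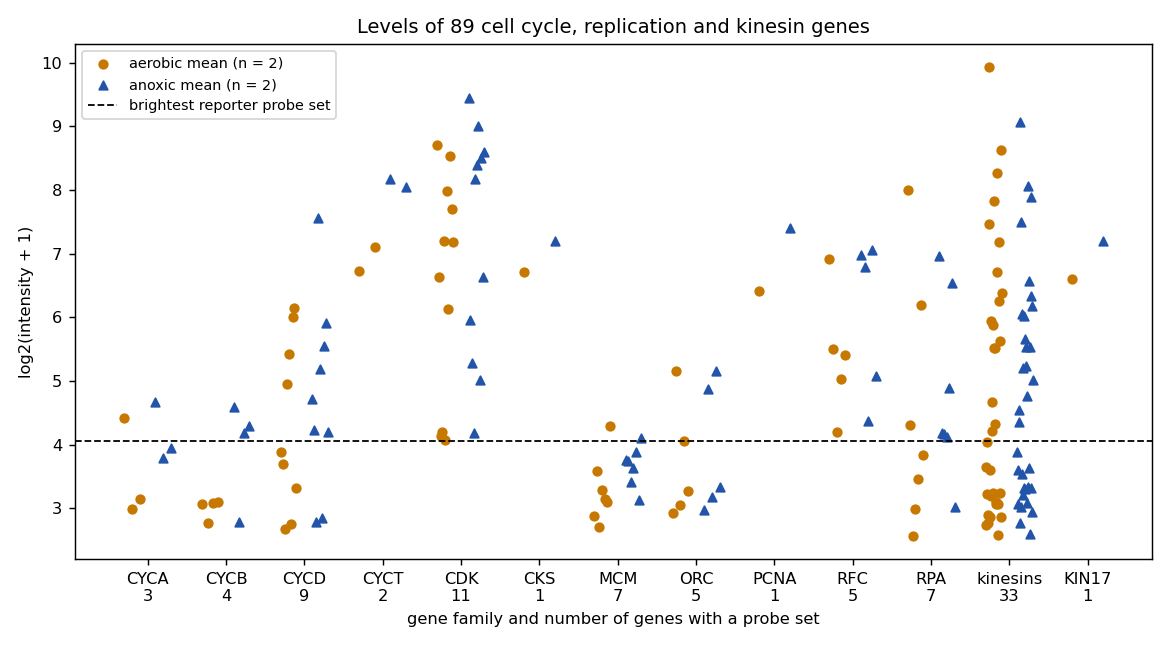
Group mean level, log2(intensity + 1), of the 89 members with a probe set by gene family (orange aerobic, blue anoxic, n = 2 arrays each), with a dashed line at the brightest reporter probe set, 4.05. Except MCM9 in both groups and 3 of 4 B-type cyclins in anoxia, the MCM and B-type cyclin genes lie under the line, while every CDK gene lies above it in both groups.

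Within this dim set the anoxic arrays were often the brighter. Of the 38 members, 76.3% were at background in both groups, against 91.3% of all genes below the filter. The shares that follow therefore compare sets of unlike level, and genes at background in both groups have less room to differ. In 31 of 38 members below the filter both anoxic arrays lay above both aerobic arrays, against 45.2% of all genes below the filter, many of these by very small steps. The anoxic mean exceeded the aerobic mean by over 0.5 log2 units in 14 of the 38, against 7.37% of all genes below the filter. These were 7 of 10 cyclins, 5 of 12 replication genes and 2 of 16 kinesins. It was lower by over 0.5 in 2 members, 5.26% against 7.75% of all genes below the filter. KIN14H read 4.06 and 4.38 in air and 3.22 and 3.40 in anoxia, at least 1.12-fold lower. RPA2C read 4.23 and 3.45 in air and 2.99 and 3.05 in anoxia, with both means at background. These genes and the following ones were chosen after their values were seen. CYCB1-1 read 2.79 and 3.35 in air and 4.27 and 4.91 in anoxia. CYCB2-1 read 3.10 and 3.07 in air and 4.28 and 4.10 in anoxia. KIN12C, of a class that includes phragmoplast motors in other plants, read 2.71 and 3.07 in air and 3.86 and 4.83 in anoxia. In each of these genes the aerobic arrays were at background and the anoxic arrays around or slightly over it. Against background CYCB1-1 was at least 1.45-fold higher, CYCB2-1 at least 1.10-fold and KIN12C at least 1.22-fold. MCM2 read 2.87 on both aerobic arrays and 3.17 and 4.36 in anoxia, MCM7 3.09 and 3.21 in air and 3.36 and 4.39 in anoxia. In a fit with no filter, CYCB2-1 alone of the 38 was called (limma, adjusted p = 0.0488), at least 1.10-fold higher since its aerobic arrays were at background, in a fit where 2.74% of all genes were called higher and 3.95% lower.

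The dim levels also differed between the anoxic replicates. Anoxic replicate 2 lay above anoxic replicate 1 in 32 of 38 members below the filter and in all 6 MCM genes there, against 70.6% of all genes below the filter. Its part in the dim differences was not tested. Genes listed as shoot meristem and leaf primordium markers were measured beside them. OSH1, a homeobox gene of the shoot meristem, read 3.16 and 3.06 in air and 4.60 and 5.28 in anoxia. It was at least 1.85-fold higher (limma, adjusted p = 0.0115), tested only because its anoxic arrays lifted it over the filter. HOS66, HOS59 and LOG of the same list fell, HOS66 at least 14.0-fold (limma, adjusted p = 0.00147). HOS66 was at background in anoxia and passed the filter only through its aerobic arrays. Of the 13 markers measured, 1 rose, 3 fell and 4 were at background in both groups. Their summed intensity was 1522 to 2131 in air and 1312 to 1331 in anoxia. The brightest of them, HOS58 (mean intensity 920), weighed most in these sums and differed by 0.07 ± 0.20. Whether all genes of the list mark the same cells, or mark the meristem at all, was not tested, so its counts and sums are no measure of meristem tissue. For 9 leaf markers the sum was 873 to 967 in air and 776 to 954 in anoxia, with CAB2R and rca at background. GLO1 (mean intensity 522) weighed most in the leaf sums and differed by 0.12 ± 0.22. Of the 6 leaf markers tested, 0 rose and 1 fell, PSAG (-1.40 ± 0.17). Both anoxic arrays lay above both aerobic arrays in 1 of the 6 and below them in 2. The sum of 13 endosperm and aleurone markers, 10 of them at background, was 1099 to 1490 in air and 446 to 809 in anoxia. LEA (mean intensity 638) weighed most in these sums, differed by -0.97 ± 0.48 and was not called. Sbe1 fell (-2.51 ± 0.20), and GLUA2 differed by -0.06 ± 0.20. The 5 root markers summed to 40.5 in air and 55.9 to 62.2 in anoxia, with 3 at background. The higher anoxic sums came mostly from RSS1 (LOC4329928) and SHR1. RSS1 read 3.34 and 3.33 in air and 4.76 and 4.11 in anoxia. Whether RSS1 marks root cells was not tested, so the sums are no measure of root tissue. The part of other cells in the results on members was not tested.

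Regulators that act on the members were measured too, from lists matched by symbol. The KRP proteins inhibit cyclin-dependent kinases, and RBR proteins hold back the E2F factors that switch on replication genes. KRP6 read 3.59 and 4.33 in air, on average at background, and 8.67 and 9.23 in anoxia, at least 29.8-fold higher (limma, adjusted p = 0.00221). Its aerobic mean lay under the filter, which it passed only through its anoxic arrays. KRP5 read 4.65 and 4.82 in air and 6.68 and 7.37 in anoxia, a rise of 2.29 ± 0.29 (4.89-fold, adjusted p = 0.00718). KRP1 went the other way, from 8.61 and 8.51 to 6.91 and 6.51 (-1.85 ± 0.21, 3.61-fold lower, adjusted p = 0.00585). RBR2 fell from 7.22 and 7.18 to 6.30 and 6.02 (-1.04 ± 0.19, adjusted p = 0.0166). KRP4 read 3.90 and 4.02 in air, at background, and 4.74 and 4.77 in anoxia, so it passed the filter only through its anoxic arrays. It was at least 1.62-fold higher (adjusted p = 0.0242), with a log2 change too small for a call. Over the whole array 34% of tested genes were called, 16% higher and 18% lower. Of the 5 genes tested in this list, 2 rose (40%) and 2 fell (40%), counts too small to compare with those shares. Inhibitors of the same family moved in opposite directions beside the rise of CYCD4-1. This list and the tubulin and formin lists described next held 11 calls in all, and the number was 1 without aerobic replicate 1, 2 without aerobic replicate 2, 8 without anoxic replicate 1 and 6 without anoxic replicate 2.

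**Figure D4:**
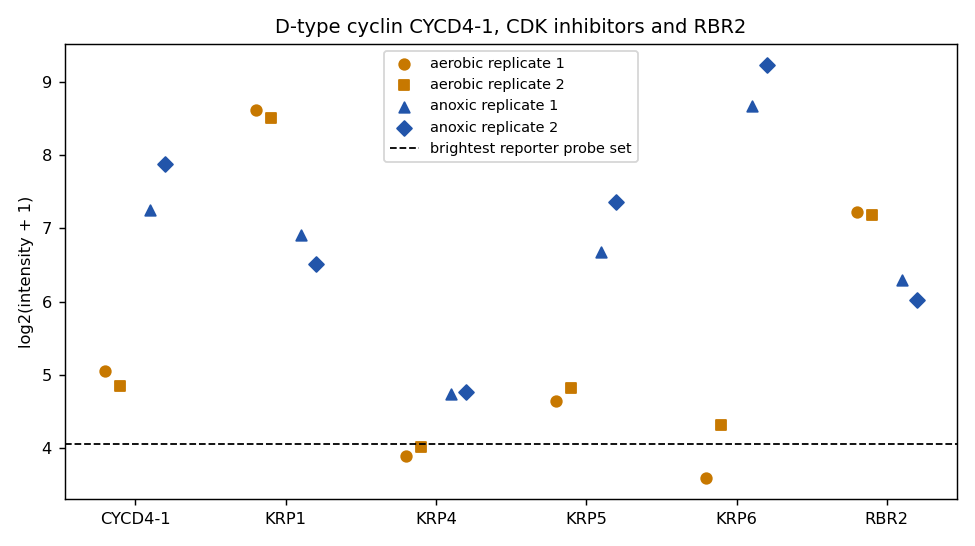
Level, log2(intensity + 1), on each array for CYCD4-1, the kinase inhibitors KRP1, KRP4, KRP5 and KRP6 and the retinoblastoma-related RBR2, with 1 point per array (orange aerobic, blue anoxic) and a dashed line at 4.05. CYCD4-1, KRP4, KRP5 and KRP6 are higher in both anoxic arrays, KRP1 and RBR2 lower.

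Other lists of the same processes held few calls or calls in both directions. None of 3 tested DNA polymerase and replication enzyme genes was called (limma; 1 at an unadjusted p under 0.05), and FEN1B, a nuclease that trims replication intermediates, differed by 0.99 ± 0.28 (adjusted p = 0.0534). POLD2, a DNA polymerase subunit at background in air, passed the filter only through anoxic replicate 2. It was at least 1.34-fold higher (adjusted p = 0.137). The median log2 change of the 3 genes, 0.91, was the value of POLD2 itself and shows no tendency of the list, in which FEN1A differed by -0.39. None of 7 tested repair and recombination genes was called (limma; 3 at an unadjusted p under 0.05), with RAD23 0.72 higher and KU80 at -0.78, both under the fold threshold. Among 10 tubulin genes, the tracks of the kinesins, 3 rose (30%, against 16% of all tested genes) and 2 fell (20%, against 18%). The rises were TUB7 by 1.37 ± 0.20, TUB3 by 1.21 and TUB2 by 1.11, and the falls TUB8 at -1.32 ± 0.18 and TUB6 at -1.04. Of 5 tested genes of the cytokinesis list, all formins, 1 rose and 1 fell (20% each). FH15, at background in air and over the filter only through its anoxic arrays, was at least 4.99-fold higher (limma, adjusted p = 0.00576). FH16 fell by 1.21 on the log2 scale.

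For 6 members 2 probe sets were tested, and for 2 of these genes they disagreed in call. Besides CDKE-1, CYCD5-2 read 5.77 and 6.24 in air and 5.45 and 5.65 in anoxia with the brightest probe set, which was not called. Its other probe set read 5.52 and 5.85 in air and 3.97 and 4.19 in anoxia, a fall of 1.60 on the log2 scale. The probe sets of KIN13A and CDKA-2 differed by no more than their SE, and those of MCM9 and CDKF-4 gave changes near 0 of opposite sign. Among the called genes, CDKG-2 and RFC4 were read by probe sets shared by transcripts of the same gene, and ORC4 and KIN8B by probe sets that can also bind related transcripts, so their values are uncertain to that degree. A second probe set of KIN8B, too dim to test, showed no fall (2.99 and 2.88 in air, 2.98 and 2.99 in anoxia). That of ORC4, also untested, read 3.19 and 3.43 in air and 5.04 and 4.31 in anoxia. The other probe sets of CDKG-1 and CDKG-2 were at background on all arrays.

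**Figure D5:**
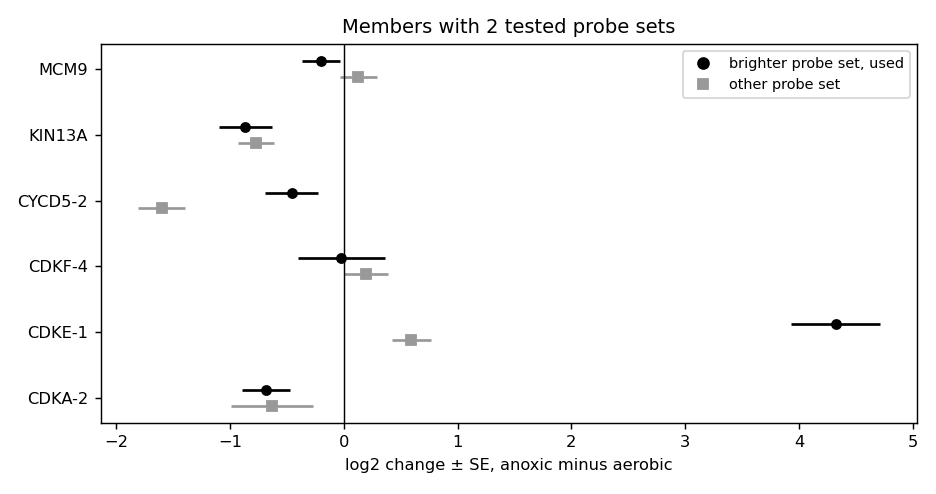
Log2 change, anoxic minus aerobic, with its SE for the 6 members with 2 tested probe sets, the brighter by mean intensity in black and the other in grey. The probe sets of CDKE-1 (4.32 and 0.59) and CYCD5-2 (-0.46 and -1.60) lie far apart.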

How the data were processed

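Each array's deposited file gives a linear intensity for every probe set, normalized by the authors with GCRMA per the submitters' processing notes, which name no version or settings. Array medians of the linear intensity, before any log, lay between 7.36 and 7.55, so no scaling was added. Levels are log2 values after a pseudocount of 1 was added to the deposited intensity, a scale that understates changes of dim genes. Of 57381 probe sets, 187 controls were left out; 22436 of the rest had 1 gene in the platform annotation, 95 several and 34663 none. Names came from the RefSeq gene table of assembly ASM3414082v1.

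Probe sets with a mean level of at least 4 (18826) were fitted with limma 3.58.1 in R 4.3.3 (lmFit, eBayes, 2-sided, Benjamini-Hochberg over all of them; 2 residual degrees of freedom, 2.34 added by eBayes), and the steps were tested on simulated data. A gene was read by its brightest probe set by mean intensity. Where the dimmer group lay at or below 4.05, an at least N-fold bound against 4.05 is given for the tested genes described and for some below the filter. The array number limits the precision. Groups and replicate numbers came from sample titles.

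The members and lists were chosen with earlier results of these data known. Named genes were the markers CYCD4-1 and KIN14M, every called member, up to 3 of the brightest uncalled members of each group, those nearest the filter, and up to 3 called genes per related list; other genes were named after their values were seen, to complete a family or a count. MADS-box genes, which the pattern MAD had matched, were left out, as was a sucrose synthase also called RSS1 (LOC4340386, 1.09 ± 0.19, called higher) that the root list had matched by name. Lists for histones and cohesins had no measured gene. MCM6, listed only as OsMCM6, was not a member. Alternatives were other pseudocounts, filters, floors, normalization, variance trend, probe set rules, symbol rules, a replicate block and leaving out each array.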

Additional observations from a re-analysis of the deposited data

How the results depend on the processing

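The calls were sensitive to the choices made. A pseudocount of 16 left 6 rises and 3 falls, with 2 calls among kinases and 2 among replication genes. With no filter 57194 probe sets were tested, and 1 member rose and 1 fell: by limma there was 1 call among cyclins, 1 among kinesins and 0 among kinases, replication genes and the related lists (8, 6 and 17 at an unadjusted p under 0.05). A mean of at least 6 left 2 kinesin calls and medians of 1.19 for cyclins, 0.66 for replication and -0.21 for kinesins. Asking for a digit or hyphen after every prefix, which drops all CDK genes and PCNA, gave 6 rises, and the symbol column alone 0 rises and 0 falls (limma, 0 also at an unadjusted p under 0.05). Leaving out 1 array gave 1 to 6 rises and 1 to 4 falls among members, 0 to 1 calls for cyclins, 0 to 3 for kinases, 0 to 2 for replication, 1 to 3 for kinesins and 1 to 8 in the related lists, with kinesin medians from -0.26 to 0.13. CDKF-4, not called, changed sign under quantile normalization (0.014), with the mean of all tested probe sets (0.086), and over the arrays left out (-0.47 to 0.42). The mean of all tested probe sets gave 7 falls, CYCD5-2 added. A replicate block gave 9 rises and 4 falls and ended the calls of CDKF-1, CDKG-1, ORC4 and RPA14. Same-numbered arrays deviated from their group means with a correlation of -0.14, and a block of crossed numbers, gave 10 rises and 6 falls. The crossed numbers, the symbol column alone, the choice by mean log2 level (9 rises, 6 falls) and probe sets of unique type only (7 and 5) were chosen after seeing the data. Of 341 alternative values of single named members, 263 kept direction and call, 69 lost the call, 5 gained it and 4, all of CDKF-4, changed sign.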
